A study of Homo sapiens and Mus musculus with 4 samples.

Results

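The MYC, MAX and MXD network was examined as 10 human genes (MYC, MYCN, MAX, MXD1, MXD3, MXD4, MXI1, MNT, MGA and MLX) and the 10 mouse genes of the same symbols. They were found in the table by symbol, each symbol was present in 1 row per species, and together they are 20 of the 60736 genes in the table, with 10 of 32738 human and 10 of 27998 mouse genes. The study prepared bulk messenger RNA from 4 established lymphocyte cell lines as a reference for a comparison of single-cell methods, with 1 stranded library per line. Jurkat is a human CD4+ T-cell leukaemia line and TALL104 a human CD8+ T-cell leukaemia line, whereas EL4 is a T-cell lymphoma of the mouse and IVA12 a mouse hybridoma that the study treats as B cells. No line carried a label for a treatment or an engineered allele, but per the study's methods each was grown in its own medium, and only the TALL104 medium held interleukin-2. Each line stands for 1 tumour-derived culture, and differences between lines cannot be told apart from differences between media. The paper also describes TALL104 cells as smaller, slow-growing and difficult to culture, with limited viability. Differences between TALL104 and Jurkat cannot be told apart from these features either. Lines were compared within a species, and with 1 library per line there is no spread between cultures to test against.

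MYC and MYCN are transcription factors that must pair with MAX to bind DNA, and the MYC-MAX pair binds the E-box, the short site CACGTG, and raises transcription of genes for ribosome assembly, nucleotide and amino acid metabolism and cell cycle entry. MXD1, MXD3, MXD4, MXI1 and MNT compete for the same partner and the same sites, and pairs of these proteins with MAX recruit the SIN3 and histone deacetylase complex and lower transcription. MGA also binds MAX and belongs to a variant Polycomb complex, while MLX is a MAX-like partner that serves MLXIP and MLXIPL and can also bind some MXD proteins and MNT. In lymphocytes, MYC is known to be induced on activation and to be deregulated in many leukaemias and lymphomas, and MXD1 is known for its rise as cells leave the cycle and mature.

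Because CACGTG is the site these proteins share, it was searched for in RefSeq promoter windows of the human members (GRCh38.p14, 250 bases before to 50 after each start site). The motif is its own reverse complement, so a single search covers both strands. A window was held for 9 of the 10 human members, MYC being the exception, and the motif was present in those of 3, MXD4, MNT and MLX, at 238, 193 and 50 bases before the start site. Of all 35116 windows, 7.26% held the motif, and counted by gene 8.77% of 27305 did. The letters were not found in the windows of MYCN, MAX, MXD1, MXD3, MXI1 and MGA, which says nothing of binding elsewhere. The 3 stretches of 120 bases that hold the motif are shown to place it, 5′ to 3′ on the strand of the gene, with CACGTG in capitals. They lie at chr4:2262240-2262359 on the minus strand for MXD4, chr17:2401191-2401310 on the minus strand for MNT and chr17:42566952-42567071 on the plus strand for MLX, and each matched the hg19 genome exactly once.
MXD4: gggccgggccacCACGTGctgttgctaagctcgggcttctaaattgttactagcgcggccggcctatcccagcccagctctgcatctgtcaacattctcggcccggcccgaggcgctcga
MNT: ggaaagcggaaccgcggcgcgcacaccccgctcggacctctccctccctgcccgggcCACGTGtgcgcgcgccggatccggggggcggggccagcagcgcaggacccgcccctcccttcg
MLX: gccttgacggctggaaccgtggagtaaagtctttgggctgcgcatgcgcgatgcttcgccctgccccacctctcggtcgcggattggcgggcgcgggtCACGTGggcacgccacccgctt

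The values were FPKM, in which fragments are divided by the length of the gene and by the library total. Levels of different genes can therefore be compared only as far as the lengths used fit the transcripts present. At a relative tolerance of 1e-12, each value that was not 0 came from whole reads, for totals of 25286728 to 34783047 reads per library. Intervals after a level or a ratio are exact 95% intervals for the counting of those reads and cover counting error only. A recovered read number could be too low where the gene length shared a factor with it, and the true interval would then be narrower. All 7 T-cell markers examined had at least 1 FPKM in both human lines, but CD79A, a component of the B-cell receptor, also had 16.5 FPKM in Jurkat and 24.6 FPKM in TALL104. The 7 T-cell markers were all higher in EL4 than in IVA12, although Cd2 still had 9.99 FPKM in IVA12. In IVA12 the antibody joining chain Jchain (1289 FPKM), Cd79b (163 FPKM) and Ms4a1 (46.5 FPKM) were high, whereas Cd79a (0.0543 FPKM) was near 0. Markers of proliferation differed between the human lines, with a summed level of 1427 FPKM in Jurkat against 195.5 FPKM in TALL104 over 14 genes, and were closer in the mouse lines at 1476 FPKM in EL4 and 1151 FPKM in IVA12.

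MYC, the activator of the network, differed within both species. Human MYC (ENSG00000136997, hg19 chromosome 8, 128747680 to 128755197, plus strand) measured 96.8 FPKM in Jurkat (94.9 to 98.7, 10087 reads) and 20.4 FPKM in TALL104 (19.4 to 21.4, 1730 reads). Jurkat was thus the high line, with a ratio of 4.75 (4.51 to 5.0) and a log2 ratio on the FPKM + 1 scale of 2.19. Among human genes with at least 1 FPKM in the library, MYC stood at percentile 97.1 in Jurkat and 78.9 in TALL104. Mouse Myc (ENSMUSG00000022346, mm10 chromosome 15, 61985391 to 61990374, plus strand) measured 51.9 FPKM in EL4 (50.4 to 53.4, 4618 reads) and 194.7 FPKM in IVA12 (191 to 198, 13623 reads). Here the hybridoma was the high line, 3.75-fold above EL4 (3.63 to 3.88), with a log2 ratio of -1.89 for EL4 over IVA12. In percentiles of the mouse genes at 1 FPKM or more, Myc stood at 89.1 in EL4 and 97.8 in IVA12. MYC was the highest of the 10 members in Jurkat, EL4 and IVA12, and in TALL104 it came after MAX.

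MYCN, a paralogue best known from the developing nervous system and from neuroblastoma, was the member with the widest ratio in the human lines. It had 3.89 FPKM in Jurkat (3.49 to 4.32, 352 reads) and 0.108 FPKM in TALL104 (0.0468 to 0.214, 8 reads; ENSG00000134323, hg19 chromosome 2, 16080672 to 16087129). Jurkat was 35.9-fold higher (18.0 to 83.7), and the width of that interval comes from the 8 reads of TALL104. On the FPKM + 1 scale the log2 ratio was 2.14, which understates the ratio of so low a gene. In Jurkat, MYCN was nevertheless far below MYC. Mouse Mycn (ENSMUSG00000037169, mm10 chromosome 12, 12936093 to 12941914) was listed at 0 in both mouse lines, where a count of 0 allows up to 0.0283 FPKM in EL4 and 0.0360 FPKM in IVA12, taking 3 reads as the floor.

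**Figure D1:**
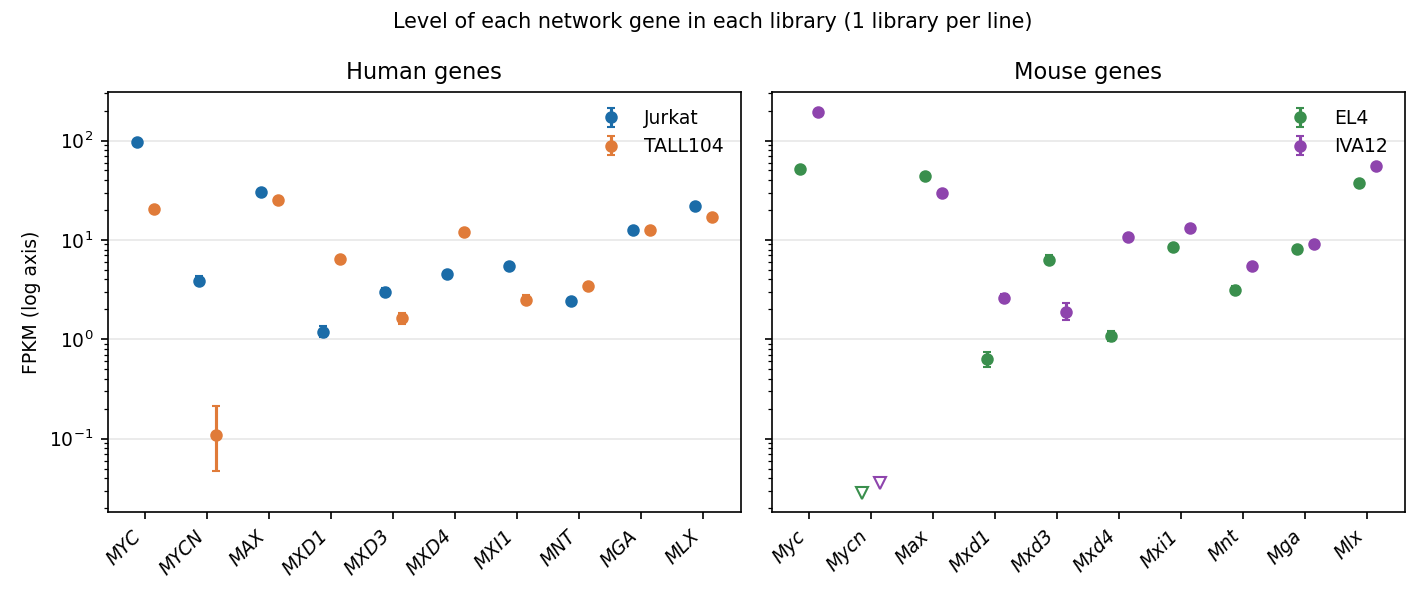
Level of each member in FPKM on a log axis, human genes in Jurkat and TALL104 and mouse genes in EL4 and IVA12, with bars for the 95% counting interval of the single library. MYC is at 96.8 in Jurkat and 20.4 in TALL104, Myc is at 51.9 in EL4 and 194.7 in IVA12, and open triangles mark the 3-read floor of Mycn, which is listed at 0.

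MAX, the partner shared by the MYC, MXD and MNT proteins, varied less than MYC. It had 30.7 FPKM in Jurkat (29.4 to 31.9) and 25.1 FPKM in TALL104 (23.9 to 26.4; ENSG00000125952, hg19 chromosome 14, 65472892 to 65569413). Jurkat was 1.22-fold higher (1.15 to 1.30) with a log2 ratio of 0.28, under the 1.5-fold threshold. Mouse Max had 43.6 FPKM in EL4 (42.0 to 45.2) and 29.5 FPKM in IVA12 (28.0 to 31.0; ENSMUSG00000059436, mm10 chromosome 12, 76937269 to 76962201). EL4 was 1.48-fold higher (1.39 to 1.57), log2 ratio 0.55, so that the line with less Myc held more Max. The level of MYC relative to MAX in the same library was 3.16 in Jurkat against 0.811 in TALL104, and 1.19 in EL4 against 6.60 in IVA12.

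Of the MXD repressors, MXD1, known from cells that leave the cycle, and MXD4 were lower in Jurkat and in EL4. MXD1 had 1.19 FPKM in Jurkat (1.05 to 1.35) and 6.38 FPKM in TALL104 (6.02 to 6.77; ENSG00000059728, hg19 chromosome 2, 70124820 to 70170077). TALL104 was 5.36-fold higher (4.68 to 6.15), log2 ratio -1.75. Mouse Mxd1 had 0.629 FPKM in EL4 (0.530 to 0.741) and 2.60 FPKM in IVA12 (2.37 to 2.85; ENSMUSG00000001156, mm10 chromosome 6, 86647042 to 86669161). IVA12 was 4.13-fold higher (3.42 to 5.02), log2 ratio -1.14, and EL4 was below the 1 FPKM used here for detection. In the human pair the line with less MYC thus had more MXD1, whereas in the mouse pair the line with more Myc also had more Mxd1.

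MXD4 carried one of the 3 E-box windows shown above. It had 4.58 FPKM in Jurkat (4.31 to 4.85) and 11.9 FPKM in TALL104 (11.4 to 12.4; ENSG00000123933, hg19 chromosome 4, 2249159 to 2263836). TALL104 was 2.60-fold higher (2.42 to 2.79), log2 ratio -1.21. Mouse Mxd4 had 1.08 FPKM in EL4 (0.958 to 1.21) and 10.7 FPKM in IVA12 (10.3 to 11.2; ENSMUSG00000037235, mm10 chromosome 5, 34173883 to 34187720). At 9.96-fold (8.82 to 11.3) and a log2 ratio of -2.498, Mxd4 was the member with the widest ratio between the mouse lines.

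MXD3, the MXD protein known for its expression in dividing cells, went the other way. It had 3.001 FPKM in Jurkat (2.75 to 3.27) and 1.64 FPKM in TALL104 (1.44 to 1.86; ENSG00000213347, hg19 chromosome 5, 176728462 to 176739758). The ratio was 1.83 (1.57 to 2.15) and the log2 ratio 0.60, just past the threshold of 0.58, and after scaling by the median ratio it was 0.53 and no longer past it. Mouse Mxd3 had 6.34 FPKM in EL4 (5.75 to 6.97) and 1.90 FPKM in IVA12 (1.55 to 2.31; ENSMUSG00000021485, mm10 chromosome 13, 55325168 to 55329823). EL4 was 3.33-fold higher (2.68 to 4.19), log2 ratio 1.34, and Mxd3 was the only one of the 10 mouse members past the threshold in the direction of EL4. Human MXD3 shares 926 exon bases with RAB24 on the same strand and 1148 with PRELID1 on the opposite strand.

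MXI1, also called MXD2, had opposite directions in the 2 pairs. It had 5.46 FPKM in Jurkat (5.10 to 5.83) and 2.504 FPKM in TALL104 (2.24 to 2.79; ENSG00000119950, hg19 chromosome 10, 111967363 to 112047123), a ratio of 2.18 (1.92 to 2.48) and a log2 ratio of 0.88. Mouse Mxi1 had 8.52 FPKM in EL4 (8.10 to 8.96) and 13.2 FPKM in IVA12 (12.6 to 13.8; ENSMUSG00000025025, mm10 chromosome 19, 53310518 to 53375810). IVA12 was 1.55-fold higher (1.45 to 1.66), and on the FPKM + 1 scale the log2 ratio of -0.58 fell just short of the threshold, whereas with a pseudocount of 0.1 it was -0.63 and past it. Jurkat was the high line among the human pair and the hybridoma among the mouse pair, which in each pair is the line with more MYC.

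MNT, the broadly expressed repressor of the network, had a narrower range. It had 2.42 FPKM in Jurkat (2.25 to 2.60) and 3.40 FPKM in TALL104 (3.17 to 3.64; ENSG00000070444, hg19 chromosome 17, 2287367 to 2304398), with TALL104 1.40-fold higher (1.27 to 1.55) and a log2 ratio of -0.36. Mouse Mnt had 3.13 FPKM in EL4 (2.85 to 3.42) and 5.48 FPKM in IVA12 (5.06 to 5.92; ENSMUSG00000000282, mm10 chromosome 11, 74830920 to 74845725). IVA12 was 1.75-fold higher (1.55 to 1.98), log2 ratio -0.65, which passed the threshold in the mouse pair only, and a difference between the pairs was not tested.

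MGA, the scaffold of a variant Polycomb complex, and MLX, like MAX, did not pass the threshold in either pair. MGA (ENSG00000174197, hg19 chromosome 15, 41913332 to 42065279) stood at 12.7 FPKM in Jurkat (12.3 to 13.0) and 12.4 FPKM in TALL104 (12.1 to 12.8), a ratio of 1.02 whose interval of 0.980 to 1.06 includes 1. Its log2 ratio of 0.02 turned to -0.08 after scaling by the median ratio. For mouse Mga (ENSMUSG00000033943, mm10 chromosome 2, 119897228 to 119969581) the EL4 level was 8.03 FPKM (7.78 to 8.29) and the IVA12 level 9.03 FPKM (8.73 to 9.33), so IVA12 was 1.12-fold higher (1.07 to 1.18). For MLX (ENSG00000108788, hg19 chromosome 17, 40719090 to 40725257) the level was 21.9 FPKM in Jurkat (21.1 to 22.6) and 16.9 FPKM in TALL104 (16.2 to 17.7), a ratio of 1.29 (1.22 to 1.37). Mouse Mlx (ENSMUSG00000017801, mm10 chromosome 11, 101087277 to 101092207) reached 37.6 FPKM in EL4 (36.1 to 39.1) and 54.9 FPKM in IVA12 (52.9 to 56.98), and IVA12 was 1.46-fold higher (1.38 to 1.54). All 4 log2 ratios were within the threshold, at 0.02 for MGA, -0.15 for Mga, 0.35 for MLX and -0.53 for Mlx.

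Counted over the members, 6 of 10 human genes differed by more than 1.5-fold on FPKM + 1, against 25.3% of all human genes and 62.6% of those that reached 1 FPKM in either line. The 4 higher in Jurkat were MYC, MYCN, MXD3 and MXI1 (13.8% of all human genes were higher there), and the 2 higher in TALL104 were MXD1 and MXD4 (11.4%). In the mouse pair 5 of 10 members differed, against 21.0% of all mouse genes and 50.3% of those that reached 1 FPKM in either line. Mxd3 was higher in EL4 (9.75% of all mouse genes were), and Myc, Mxd1, Mxd4 and Mnt were higher in IVA12 (11.2%). All 10 human members and 9 of the 10 mouse members had at least 1 FPKM in either line, so the shares past the threshold were near those of genes expressed at this level. The members had a median log2 ratio of 0.32 for the human lines and -0.56 for the mouse lines, and that of the genes with at least 1 FPKM in either line was 0.10 and -0.04. For 9 of 10 members in each pair the counting interval of the ratio excluded 1, with MGA the exception in human and Mycn, which has no ratio, in mouse.

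**Figure D2:**
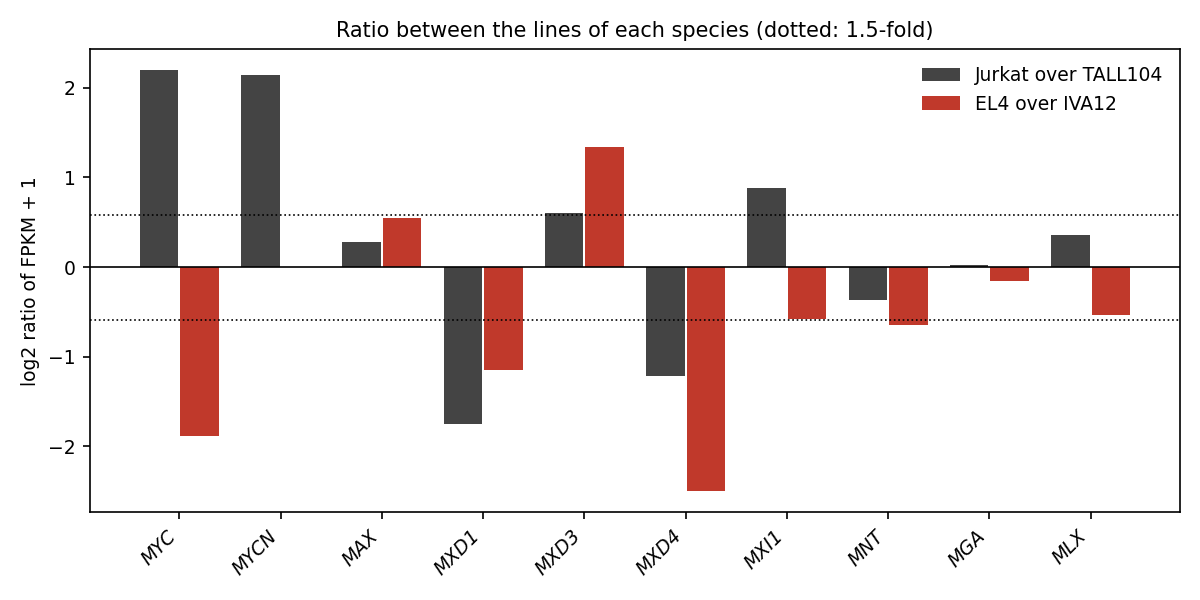
Log2 ratio of each member on the FPKM + 1 scale, Jurkat over TALL104 and EL4 over IVA12, with dotted lines at the 1.5-fold threshold. MYC is at 2.19 and mouse Myc at -1.89, while MXD1 and MXD4 are below 0 in both pairs and MXD3 is above 0 in both.

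Of the pairs of members next to each other in the order of levels within a library, 3 of 34 had overlapping counting intervals. These were MXD4 and MYCN in Jurkat, MGA and MXD4 in TALL104, and Mxi1 and Mga in EL4. MAX and MLX were among the upper 3 members with MYC in all 4 libraries. At the low end were MXD1 in Jurkat, MYCN in TALL104, and Mycn, listed at 0, in both mouse lines. Of the members, 9 in human and 4 in mouse share exon bases with another annotated gene, 2 of them (MXD1 and MXD3 in human) with a gene on the same strand. The library is stranded, but whether the counting used the strand is not given in the sources used here. How reads on shared bases were assigned is not given either. Levels of such members may therefore include reads of neighbours or lack reads of their own.

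The balance of activating and repressing partners was taken as the share of MYC and MYCN in the summed FPKM of MYC, MYCN, MXD1, MXD3, MXD4, MXI1 and MNT. It describes messenger RNA and not protein. The share was 85.8% in Jurkat (85.3 to 86.3) against 44.2% in TALL104 (42.9 to 45.6), and 72.5% in EL4 (71.5 to 73.5) against 85.2% in IVA12 (84.7 to 85.6). TALL104 was the only library in which the repressors together exceeded the MYC family, with a summed level of 25.8 FPKM against 20.5 FPKM. The repressors together had 16.7 FPKM in Jurkat, 19.7 FPKM in EL4 and 34.0 FPKM in IVA12. Within the mouse pair, IVA12 held both more Myc and more repressor RNA than EL4. The MYC family stood at 6.05 times the repressors in Jurkat but 0.793 in TALL104, and at 2.64 times in EL4 and 5.73 in IVA12. With recovered reads in place of FPKM, which gives long transcripts more weight, the TALL104 share was 26.1%, a value that would change if the recovered reads of a member missed a common factor with its length.

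**Figure D3:**
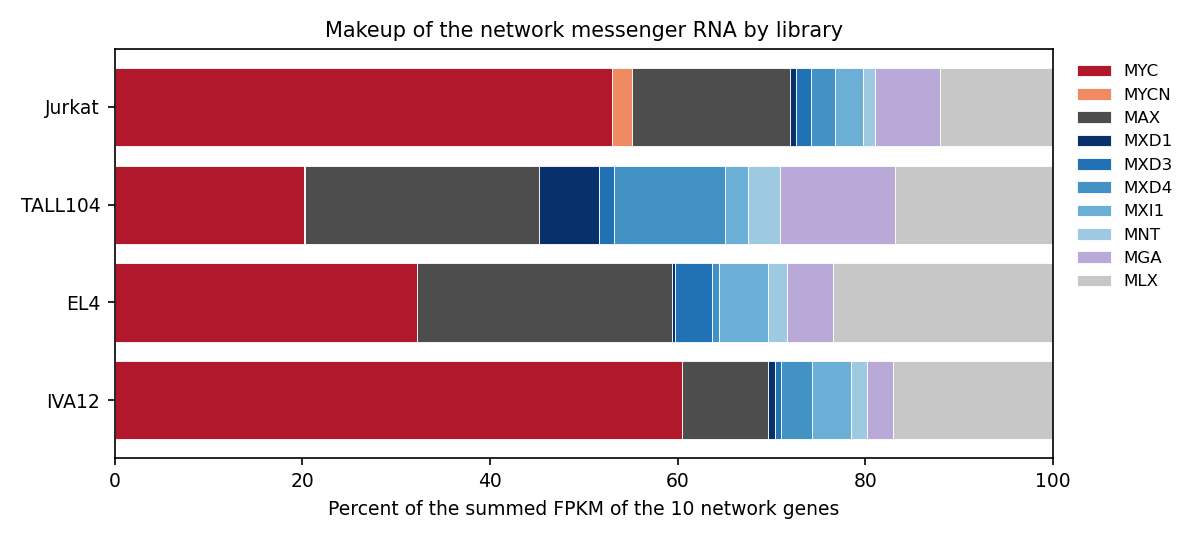
Percent of the summed FPKM of the 10 members held by each member in each library, as stacked bars that reach 100. MYC holds 53.0% in Jurkat but 20.2% in TALL104, and 32.3% in EL4 but 60.5% in IVA12, and MAX holds 24.9% in TALL104 and 9.16% in IVA12.

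The genes around the network were read from 8 lists. Over these lists 69 of 98 human genes differed by more than 1.5-fold, 57 higher in Jurkat and 12 in TALL104, and 41 of 99 mouse genes did, 15 higher in EL4 and 26 in IVA12. These are 70.4% of the human and 41.4% of the mouse genes listed, against 62.6% and 50.3% of all genes that reached 1 FPKM in either line of the pair. By direction, 13.8% of all human genes were higher in Jurkat and 11.4% in TALL104. Of all mouse genes, 9.75% were higher in EL4 and 11.2% in IVA12. Shares by direction were not taken among the genes that reached 1 FPKM. Among other network genes, MYCL, the third MYC paralogue, was listed at 0 in TALL104 and had 1.41 FPKM in Jurkat. MLXIP, the partner of MLX known as MondoA, had 9.91 FPKM in Jurkat and 14.3 FPKM in TALL104, and 7.82 FPKM in EL4 and 6.59 FPKM in IVA12, without passing the threshold. After scaling by the median ratio, or to own-species totals without mitochondrial genes, human MLXIP passed it in the direction of TALL104.

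Genes known to be activated by MYC were mostly higher in Jurkat, the human line with more MYC. Of 32 genes, 30 were higher in Jurkat, 1 was higher in TALL104 and RRS1 did not pass, with a median log2 ratio of 1.46, and the counts were the same after either scaling. The share past the threshold was 96.9%, against 62.6% of human genes with at least 1 FPKM in either line. The median log2 ratio of the human genes at that level was 0.10, and their share by direction was not taken. HSPD1, a mitochondrial chaperonin, had 475.7 FPKM in Jurkat and 46.3 FPKM in TALL104 (log2 3.33), and the nucleoside diphosphate kinase NME1 had 16.4 and 2.35 FPKM (log2 2.38). The exception was CCND2, the G1 cyclin, at 0.675 FPKM in Jurkat and 35.1 FPKM in TALL104 (log2 -4.43). In the same pair all 14 proliferation markers were higher in Jurkat with a median log2 ratio of 3.33, and their part in the target result was not tested. Of the 26 targets with a promoter window, 13 (50%) held CACGTG, against 8.77% of all genes with a window. The list was made of genes already known to be activated by MYC, and a link of the motif to the levels was not tested.

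In the mouse pair 14 of the 32 targets were higher in IVA12, the line with more Myc, 3 were higher in EL4 (Odc1, Ldha and Tfrc) and 15 did not pass, with a median log2 ratio of -0.51. The 17 that passed are 53.1% of the list, near the 50.3% of mouse genes with at least 1 FPKM in either line. The median log2 ratio of the mouse genes at that level was -0.04, and their share by direction was not taken. Ccnd2 was at 51.7 FPKM in EL4 but 247.3 FPKM in IVA12 (log2 -2.24). The cell cycle factor E2f1 had 11.7 and 47.6 FPKM (log2 -1.93), and the DNA repair enzyme Apex1 had 48.8 and 170 FPKM (log2 -1.78). Of the proliferation markers, 4 of 14 were higher in EL4 and none in IVA12, with a median log2 ratio of 0.32. The other 10 markers did not pass, and their part in the target result was not tested.

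Genes known to be repressed by MYC gave a less even picture. In each pair 71.4% of the 7 passed, against 62.6% of human and 50.3% of mouse genes with at least 1 FPKM in either line. In the human pair 4 of 7 were higher in TALL104, 1 was higher in Jurkat and 2 did not pass, with a median log2 ratio of -0.89. CDKN1A, the cell cycle inhibitor p21, had 0.356 FPKM in Jurkat and 13.8 FPKM in TALL104 (log2 -3.45), and NDRG1, a stress-response gene, had 2.41 and 15.4 FPKM (log2 -2.27). NDRG2 went the other way with 2.04 and 0.238 FPKM (log2 1.30). In the mouse pair 3 of 7 were higher in EL4 and 2 in IVA12, with a median log2 ratio of 0.51. The cell cycle inhibitor Cdkn2b was at 12.6 FPKM in EL4 but 3.61 FPKM in IVA12 (log2 1.57), Ndrg2 had 4.27 and 0.843 FPKM (log2 1.52), and Cdkn1b, the inhibitor p27, had 14.7 and 53.7 FPKM (log2 -1.80).

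**Figure D4:**
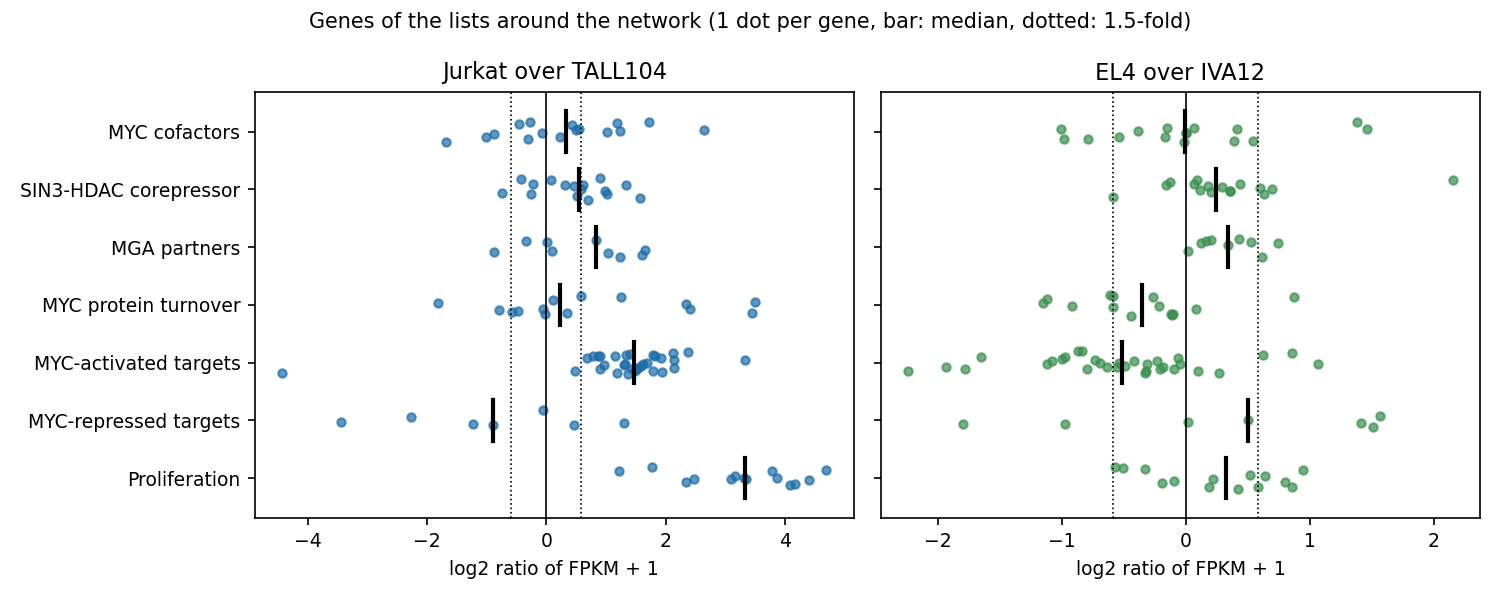
Log2 ratio on the FPKM + 1 scale of each gene in 7 lists around the network, 1 dot per gene with a bar for the list median and dotted lines at 1.5-fold. MYC-activated targets have medians of 1.46 (human) and -0.51 (mouse), and proliferation markers have medians of 3.33 and 0.32.

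Of the cofactors through which MYC acts, 8 of 16 did not pass in the human pair and 11 of 16 did not in the mouse pair. The shares that passed, 50% and 31.25%, were below the 62.6% and 50.3% of genes with at least 1 FPKM in either line. In the human lines 5 of 16 were higher in Jurkat and 3 in TALL104, with a median log2 ratio of 0.33. The ATPases RUVBL2 (58.2 against 8.49 FPKM, log2 2.64) and RUVBL1 (14.6 against 3.73 FPKM, log2 1.72) were higher in Jurkat, and the acetyltransferase CREBBP (5.45 against 19.7 FPKM, log2 -1.69) was higher in TALL104. Of the mouse cofactors, 2 of 16 were higher in EL4 and 3 in IVA12, median log2 ratio -0.01. Trrap, the scaffold that MYC binds, was at 25.1 FPKM in EL4 but 8.45 FPKM in IVA12 (log2 1.47), and Dmap1 had 20.9 and 7.40 FPKM (log2 1.38). The acetyltransferase Kat2a had 30.3 and 61.7 FPKM (log2 -1.001).

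The SIN3 and histone deacetylase complex, which the MXD proteins and MNT recruit, was higher in Jurkat for 8 of 16 genes and in TALL104 for 1, with a median log2 ratio of 0.55. That is 56.25% past the threshold, against 62.6% of human genes with at least 1 FPKM in either line. After scaling by the median ratio the 8 became 6. RBBP4, a histone-binding subunit, had 81.6 FPKM in Jurkat and 26.7 FPKM in TALL104 (log2 1.57), HDAC2 had 20.9 and 7.62 FPKM (log2 1.34), and HDAC1 had 124 and 60.9 FPKM (log2 1.02). Among the mouse genes 4 of 16 were higher in EL4 and 1 in IVA12, which is 31.25% against 50.3% of mouse genes at that level. Rbbp7 was at 304 FPKM in EL4 and 67.6 FPKM in IVA12 (log2 2.15), Hdac1 at 71.3 and 43.7 FPKM (log2 0.69) and Arid4a at 13.1 and 8.14 FPKM (log2 0.63).

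MGA partners in the variant Polycomb complex were higher in Jurkat for 5 of 9 genes and in TALL104 for 1, although MGA itself was level. That is 66.7% past the threshold, near the 62.6% of human genes with at least 1 FPKM in either line. TFDP1 had 73.6 FPKM in Jurkat and 22.6 FPKM in TALL104 (log2 1.66), the heterochromatin protein CBX3 had 136 and 44.1 FPKM (log2 1.61), and PCGF6 had 10.2 and 3.77 FPKM (log2 1.23). Of the 9 mouse partners 2 passed, Cbx3 (29.1 against 17.0 FPKM, log2 0.74) and the ubiquitin ligase Ring1 (6.71 against 4.02 FPKM, log2 0.62), both higher in EL4. The list's median log2 ratio was 0.84 for the human lines and 0.34 for the mouse lines. In the mouse pair 22.2% of the list passed, against 50.3% of mouse genes with at least 1 FPKM in either line.

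Genes that act on MYC protein turnover were higher in Jurkat for 6 of 14 and in TALL104 for 2, with a median log2 ratio of 0.23. That is 57.1% past the threshold, against 62.6% of human genes with at least 1 FPKM in either line. After either scaling the counts were 5 in Jurkat and 3 in TALL104. The mitotic kinases PLK1 (31.8 against 1.91 FPKM, log2 3.49) and AURKA (39.9 against 2.72 FPKM, log2 3.46) and the ubiquitin ligase subunit SKP2 (42.4 against 7.17 FPKM, log2 2.41) led the list. PLK1 and AURKA are also cell cycle genes. The proliferation markers were higher in Jurkat too, and their part in the result for this list was not tested. In the mouse pair 5 of 14 were higher in IVA12 and 1 in EL4, median log2 ratio -0.35. These are 42.9% of the list, against 50.3% of mouse genes with at least 1 FPKM in either line. The gene higher in EL4 was Btrc, a ubiquitin ligase subunit named here after its value was seen, at 4.37 and 1.93 FPKM (log2 0.88). Fbxw7, the ligase subunit that marks MYC for degradation, was at 4.13 FPKM in EL4 but 10.1 FPKM in IVA12 (log2 -1.12), and Usp36, a deubiquitinase that stabilises MYC, had 6.49 and 15.6 FPKM (log2 -1.15). Skp2 had 7.61 and 15.2 FPKM (log2 -0.91), and 8 of the 14 did not pass.

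MLX with MLXIP is known to drive the glucose-responsive genes TXNIP and ARRDC4. Mouse Txnip was at 7.72 FPKM in EL4 but 94.5 FPKM in IVA12, 12.2-fold higher in IVA12 (11.4 to 13.2) with a log2 ratio of -3.45, against 1.46-fold for Mlx itself. Arrdc4 was listed at 0 in both mouse lines, and human ARRDC4 had 1.24 FPKM in Jurkat and 0.454 FPKM in TALL104 (log2 0.63). Human TXNIP was not analysed here. Several of the genes named, such as HSPD1, RBBP4 and CBX3, have processed pseudogenes, NME1 overlaps the read-through gene NME1-NME2, and how multiply aligned reads were treated is not given in the sources used here.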

How the data were processed

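Bulk messenger RNA was sequenced from 4 cell lines, with 1 library per line. Per the study's methods and the submitters' processing notes, the authors aligned reads with STAR 2.5.1b to a combined hg19 and mm10 reference (Cell Ranger 1.2.0), counted genes with featureCounts 1.6.3 and deposited the values as FPKM. Gene lengths and the treatment of multiply aligned reads are not given in the sources used here. Each column was matched to its line by name, and 0 columns were left over.

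Reads were recovered by solving each FPKM for a whole number of reads over gene lengths up to 300000 bases. Ratios were log2(FPKM + 1) differences, which draw low genes toward 0, and a gene was called past 1.5-fold, as in the study's methods. Levels had exact Poisson intervals, ratios exact conditional binomial intervals and shares of the MYC family delta-method intervals, all at 95%. Ratios with intervals were of FPKM without the pseudocount. Positions came from GENCODE (human release 44 lifted to hg19, mouse M21), and promoter windows from RefSeq. The calculation was tested on simulated data. Python 3.11.15, NumPy 2.4.6, pandas 2.3.3, SciPy 1.17.1 and matplotlib 3.10.9 were used.

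The rule named every member and, per list and pair, the 3 genes with the widest log2 ratio past 1.5-fold with at least 1 FPKM in either line. RRS1, Odc1, Ldha, Tfrc, MLXIP and Arrdc4 fall outside it and were named after their values were seen. Members, lists and tests were chosen with earlier results of these data known. Pseudocounts of 0.1 and 0.01, scaling by the median ratio or to own-species totals without mitochondrial genes, a 2-fold threshold, a minimum of 1 FPKM, recovered reads, MYC alone and omission of MNT were tried as alternatives.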

Additional observations from a re-analysis of the deposited data

Results flagged for a closer look

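The lines of one species can be read for the genes of the other species, which belong to no comparison of lines. Reads on the 10 mouse members numbered 10 in Jurkat and 14 in TALL104, and reads on the 10 human members numbered 16 in EL4 and 48 in IVA12. These are sums over the members, whereas the floor of 3 reads is for a single gene, so the sums cannot be set against it. They amounted to 0.0385%, 0.0909%, 0.0960% and 0.179% of the reads on the members of the library's own species. The MYC gene of the other species had 4, 6, 4 and 20 of these reads, and in EL4 human MAX and MGA had 4 reads as well. Over all genes, the other species held 0.0397% of reads in Jurkat and 0.0369% in TALL104, 0.0493% in EL4 and 0.211% in IVA12. Their source was not tested.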

How the results depend on the processing

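Of 80 alternatives for the ratios of single members, 78 kept the sign and 76 kept the side of the 1.5-fold threshold. MXD3 in the human pair fell to 0.53 on the log2 scale under both scalings, and Mxi1 passed the threshold at -0.63 with a pseudocount of 0.1 and with 0.01. The sign of MGA turned to -0.08 under both scalings, which shifted the human log2 ratios by -0.11. The counts of members past the threshold ranged from 4 to 6 in each pair. The count of mouse list genes fell from 41 to 18 with the 2-fold threshold and was 39 to 46 otherwise, and that of human list genes was 50 to 73. The MYC family share with recovered reads in place of FPKM was 74.7% in Jurkat and 26.1% in TALL104, 61.7% in EL4 and 71.7% in IVA12. Leaving out MNT gave 87.6%, 47.7%, 75.8% and 87.2%, and MYC alone gave 85.3% in Jurkat. TALL104 had the lowest share under each of these. Shares of reads depend on the recovered lengths, and 0 of 10 human and 6 of 10 mouse members had the annotated length. The depth limits MYCN in TALL104, which rests on 8 reads, and Mycn. No paired analysis was possible because each line has 1 library, and the spread between cultures is not known.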
